A study of Mus musculus with 2 samples.

Results

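T cell surface markers and coreceptors are the membrane proteins by which thymocytes and T cells are named, sorted and costimulated. The genes described here are Thy1, Cd2, Cd5, Cd6, Cd7, Cd27, Cd28, Cd4, Cd8a and Cd8b1. They were chosen by name, and every probe set carrying 1 platform gene symbol that matched one of them was taken, which gave 16 of 45037 probe sets for 10 of 18193 genes. The rule used no measured value, though the members were chosen with earlier results of these data known. RNA of thymocytes from C57BL/6J mice was hybridised to 2 one-colour Affymetrix arrays, 1 titled DKO and 1 titled TKO, and the comparison asks how these early thymocytes differ between the genotypes behind those titles. By the series' design text, cells of both titles are Cdkn2a-/-, Ring1A-/- and Ring1Bfl/fl, and the TKO cells are LckCre(+) while the DKO cells are LckCre(-). Lck-Cre is a recombinase expressed from a T lineage promoter. The samples' genotype field instead names Ring1A and Ring1B as the genes lost in DKO, and adds Cdkn2a as a lost gene in TKO. Age, sex, the number of animals behind each array, and the antibodies of the bead depletion that left lineage-negative cells are not stated in the labels or the series text. The growth field also states a culture in standard medium, without a duration.

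In the thymus, precursors enter the double-negative stage, at which neither coreceptor is on the surface, then carry both CD4 and CD8, and keep 1 of them as mature cells. CD4 binds class II and CD8 binds class I histocompatibility molecules, and both bring the kinase Lck to the T cell receptor. Thy1, CD2, CD5, CD27 and CD28 appear on thymocytes before or during these steps and are used to follow them.

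A signal was counted as measured where it reached the median of all probe sets on its array, a floor of 68.8 on the DKO-titled and 71.8 on the TKO-titled array, and a dimmer signal was set to the floor before a ratio was taken. The targeted genes do not settle which genotype text applies, so each array is named by its title alone. Cdkn2a is lost in both genotypes by the design text, and the genotype field names it as lost in TKO only. It gave 679 on the DKO-titled array and 18.5, under the floor, on the TKO-titled array. Of the texts, only the genotype field has this gene differ between the titles. Ring1 (133 and 147) and Rnf2, the Ring1B gene (4149 and 4384), were measured on both. The position of the Cdkn2a, Ring1 and Rnf2 probe sets within the genes was not used here, so their signals do not check the deletions. Xist had signals of 124 and 16502, and the Y-linked Eif2s3y had 1711 and 55.3, so the sex of the cells and the genotype label cannot be told apart in anything that follows.

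Of the 10 genes, 9 were measured and 1, Cd4, was not. With 1 array per label there is no spread between animals and no test. A gene was therefore counted as higher or lower by a rule of size, 2-fold or more, and higher and lower describe these 2 arrays only. By that rule Cd7 was higher on the TKO-titled array, no member was lower, and 8 were neither. Over all 11280 measured genes the rule counted 3.58% as higher and 0.532% as lower, and 1 gene among 9 is too few to set against those shares. Of the 14 measured member probe sets, 1 was higher and 0 were lower, beside 2.97% and 0.51% of 20400 measured probe sets with 1 gene. At 1.5-fold Cd2 joined Cd7, which made 2 genes higher and 0 lower for genes and for probe sets alike, beside 8.66% and 3.27% of all genes and 8.1% and 3.67% of all probe sets. The median log2 ratio (TKO-titled minus DKO-titled) of the 9 genes was -0.05 and that of all measured genes -0.03. The members were split in direction, 4 with a positive and 5 with a negative ratio.

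**Figure D1:**
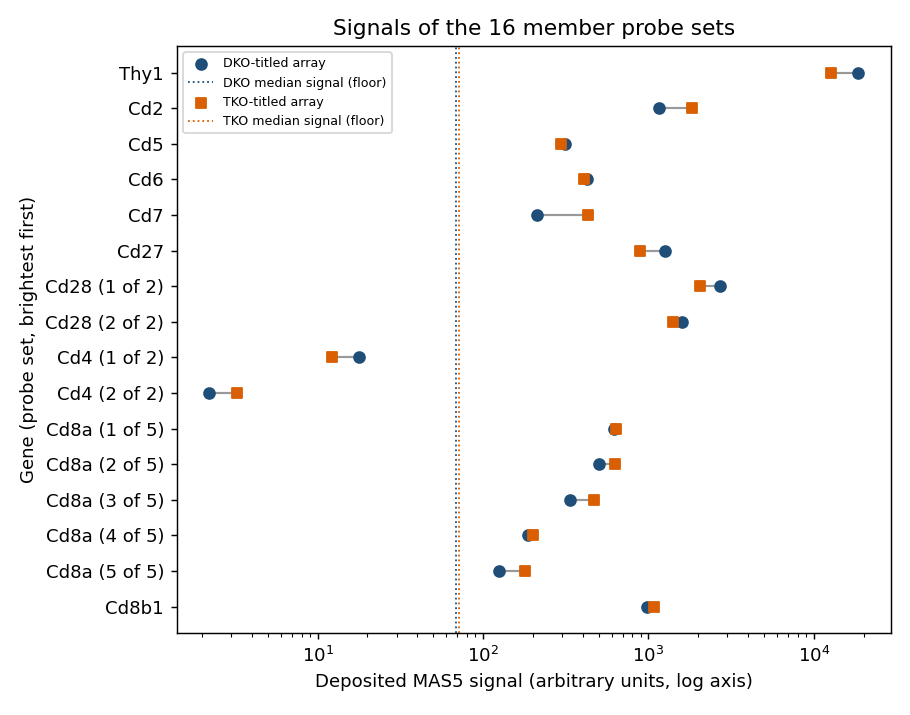
Signals of the 16 member probe sets on the DKO-titled (circles) and TKO-titled (squares) arrays, on a log axis in arbitrary MAS5 units, 1 row per probe set, with each array's median signal as a dotted line. Both Cd4 probe sets lie left of the floor lines (68.8 and 71.8), and the other 14 lie right of them on both arrays.

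The arrays hold no replicate, so the only error that can be read from them is the disagreement between probe sets of 1 gene. Over 4794 genes with at least 2 probe sets measured on both arrays, the log2 ratios of the 2 brightest differed with a robust SD of 0.29 (ordinary SD 0.36), and 95% of the differences were within 0.74. Those probe sets were read from the same hybridisations, so this holds no error between cultures or animals. It is the spread of a difference between 2 ratios, pooled over all signal levels, and so only a rough scale for a single ratio. The spread at dim signals, such as that of Cd7 (3.10 times the floor on the DKO-titled array), was not computed apart. The ratio of Cd7 was larger than 0.74, those of Thy1, Cd2 and Cd27 lay between 0.29 and 0.74 in size, and those of Cd5, Cd6 and Cd8b1 were under 0.29. Cd28 and Cd8a had probe sets on both sides of 0.29.

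The coreceptors differed in whether they were measured at all. Cd4 encodes the coreceptor for class II molecules. Its 2 probe sets gave 17.8 and 2.21 on the DKO-titled array and, in the same order, 12.2 and 3.25 on the TKO-titled array. All 4 values were under the floor, at most 0.259 times it, so Cd4 has no ratio, and without the floor its probe sets pointed opposite ways (log2 ratios of -0.55 and 0.56). Lack of surface CD4 is part of the definition of double-negative cells, and whether the depletion used antibodies to CD4 or CD8 is not stated in the labels.

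Cd8a and Cd8b1, the alpha and beta chains of the class I coreceptor, were measured on both arrays in cells that the series title calls double-negative. The 5 Cd8a probe sets gave signals of 616, 500.2, 335, 187 and 125 on the DKO-titled array, and 635, 625, 469, 201 and 178 in the same order on the TKO-titled array. Every Cd8a probe set was thus above its floor, from 1.81 to 8.95 times on the DKO-titled and from 2.49 to 8.85 times on the TKO-titled array. Each of the 5 was a little higher on the TKO-titled array, with log2 ratios of 0.04, 0.32, 0.49, 0.10 and 0.52 in that order, a mean of 0.29 (SD 0.22 over the 5 probe sets). None reached 2-fold. The 5 probe sets share the RNA and the hybridisation, and the last 2 are of the _x_at type, which can cross-hybridise. Those at 0.04 and 0.49 are also listed under the same source sequence. The brightest, at 0.04, stands for Cd8a in the counts and the median per gene, and its ratio was the lowest of the 5.

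Cd8b1 had 1 probe set, with signals of 975 on the DKO-titled and 1079.7 on the TKO-titled array (log2 ratio 0.15). The difference is smaller than the disagreement between probe sets of 1 gene. An array signal is RNA, and the surface protein by which cells are called CD8-negative was not measured here. In RNA from many cells, fewer cells of a type and less RNA per cell cannot be told apart, and this holds for every gene here.

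The adhesion receptor CD2 and the immunoglobulin-domain receptor CD7 had the largest ratios on the positive side. Cd7, which encodes a receptor known from T and natural killer cells, had a signal of 213 on the DKO-titled and 430.5 on the TKO-titled array, 2.02-fold higher (log2 ratio 1.01). It stood just past the 2-fold line, and 96.5% of the 11280 measured genes had a lower ratio. After quantile normalization it was at 0.96, and a higher floor, at the 75th percentile (417 and 431), left it unmeasured on both arrays, so the call ends under both settings. Cd2, which in the mouse is carried by T, natural killer and B cells and binds CD48, had 1158 and 1846, 1.59-fold higher (log2 ratio 0.67). It did not reach 2-fold, and 93.0% of measured genes had a lower ratio. Each of these genes had a single probe set, so no other probe set of the gene was there to set against it. On the same arrays all 11 measured B cell markers were past 2-fold on the higher side. The natural killer and innate lymphoid markers had a median log2 ratio of 0.69. The part of both marker sets in the signals of Cd2, Cd7 or any other member was not tested.

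Thy1, Cd27 and Cd28 lay on the negative side, none of them by 2-fold. Thy1 encodes the GPI-anchored glycoprotein that marks mouse T lineage cells. Its signal was 18527 on the DKO-titled and 12791 on the TKO-titled array, 1.45-fold lower (log2 ratio -0.53), and 4.34% of measured genes had a lower ratio. Its probe set was among the brightest of both arrays (percentiles 99.3 and 98.9). The 564 genes that make up the brightest 5% of measured genes had a median log2 ratio of -0.15, with 81.9% of them negative, and once the trend of the ratio with signal was removed by lowess the Thy1 ratio was -0.39.

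CD27, a receptor of the TNF receptor family, and CD28, the receptor for CD80 and CD86, are costimulators. Cd27 had 1263 on the DKO-titled and 886 on the TKO-titled array, 1.43-fold lower (log2 ratio -0.51). It ranked close to Thy1, with 4.85% of measured genes at a lower ratio. The brighter Cd28 probe set gave 2711 and 2043 (log2 ratio -0.41) and the other gave 1586 and 1412 (log2 ratio -0.17). Both probe sets of Cd28 were lower on the TKO-titled array, and they differed from each other by 0.24, less than the robust SD of 0.29 given above.

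Cd5 and Cd6, receptors with scavenger receptor cysteine-rich domains that tune T cell receptor signals, were nearly equal on the arrays. Cd5 had 311 and 298 (log2 ratio -0.07). Cd6 had 426 and 410.4 (log2 ratio -0.05). Both ratios lay near the median of all genes, and the sign of the Cd6 ratio turned (0.02) with the floor at the 75th percentile.

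Promoter sequences are shown because the Ring1 proteins belong to Polycomb repressive complex 1, which in mouse cells is found mainly at CpG-rich promoters, so that the CpG content of a member's promoter is a feature the choice of members did not use. By the samples' genotype field Ring1A and Ring1B are lost in both titles, and under that text their loss does not differ between the arrays. RefSeq promoter entries of build GRCm38.p6 matched 3 of the 10 members, Cd5, Cd27 and Cd8a. Each sequence below runs 5′ to 3′ on the strand of the gene, ends before the annotated gene span, and has CpG dinucleotides in capitals. The Cd5 stretch is chr19:10739027-10739224 (minus strand, 198 bases), the Cd27 stretch is chr6:125237137-125237277 (minus strand, 141 bases) and the Cd8a stretch is chr6:71373177-71373426 (plus strand, 250 bases).
Cd5: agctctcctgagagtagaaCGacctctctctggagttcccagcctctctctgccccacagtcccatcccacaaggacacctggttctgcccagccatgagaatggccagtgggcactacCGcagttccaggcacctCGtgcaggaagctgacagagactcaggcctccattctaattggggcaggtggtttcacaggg
Cd27: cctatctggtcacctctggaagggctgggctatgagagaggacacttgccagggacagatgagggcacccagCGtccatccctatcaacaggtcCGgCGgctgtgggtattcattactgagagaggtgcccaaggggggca
Cd8a: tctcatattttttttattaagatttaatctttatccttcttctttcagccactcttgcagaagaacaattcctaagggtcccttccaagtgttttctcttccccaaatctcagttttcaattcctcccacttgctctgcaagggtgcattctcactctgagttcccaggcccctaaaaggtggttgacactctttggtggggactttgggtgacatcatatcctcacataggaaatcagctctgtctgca

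None of the 3 was CpG-rich beside other promoters. Over the 250 bases before the listed start, which for Cd5 and Cd27 reach into the annotated gene and are printed only outside it, the Cd8a promoter held 0 CpG, the Cd5 promoter 3 and the Cd27 promoter 5, against a median of 6 (quartiles 2 and 16) over 32851 promoter windows of that length. The GC content was 42.8% for Cd8a, 56.8% for Cd5 and 56.0% for Cd27, and the median over all windows was 52.4%. Among motifs of T lineage transcription factors, searched on both strands, the E box CAGGTG occurred 2 times in the Cd5 window, 69 and 174 bases before the listed start, and 17.2% of all windows held it. The Runx core TGTGGT, the GATA motif AGATAA and the TCF/LEF core CTTTGA matched in none of the 3 windows, and of all windows 4614, 3281 and 4544 held them. A match is a run of letters and was not tested as a binding site.

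**Figure D2:**
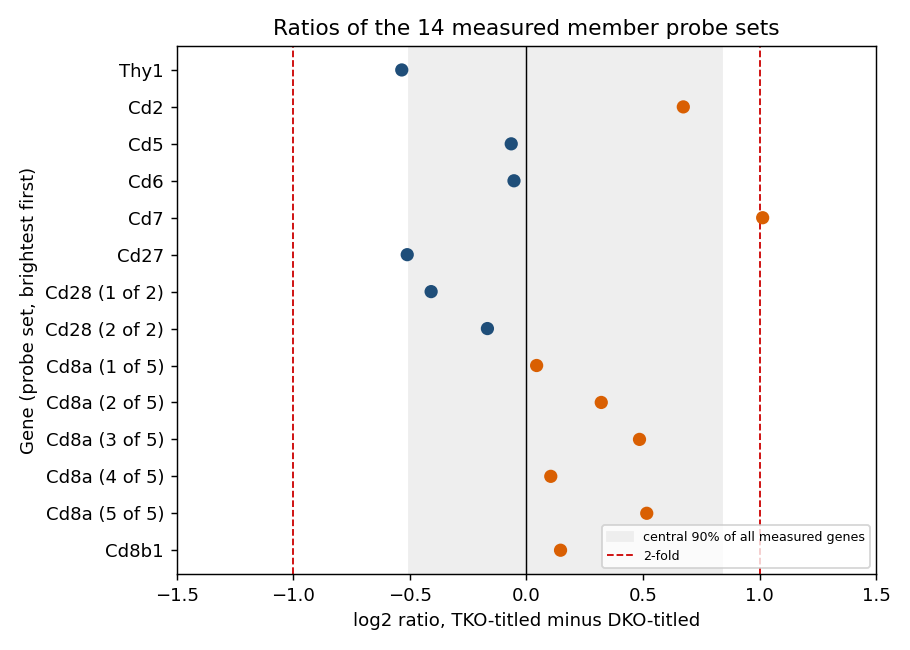
Log2 ratios (TKO-titled minus DKO-titled) of the 14 measured member probe sets, with orange points positive and blue points negative, dashed lines at 2-fold, and the central 90% of all measured genes shaded (-0.51 to 0.84). Cd7 at 1.01 lies beyond the upper dashed line, and Thy1 and Cd27 lie at the lower edge of the shaded range.

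**Figure D3:**
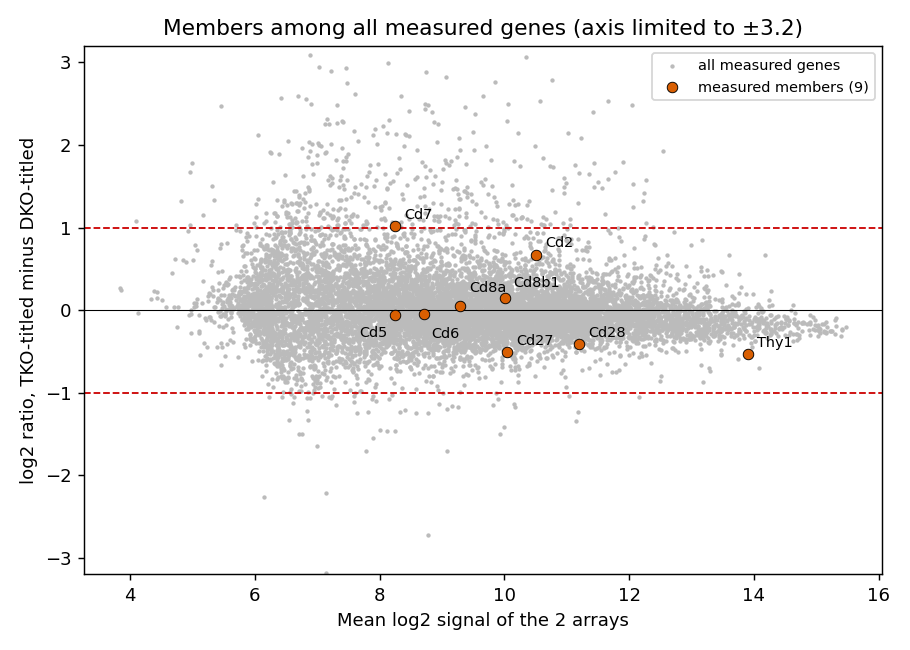
Log2 ratio against mean log2 signal of the 2 arrays for the measured genes, with the 9 measured members in orange and dashed lines at 2-fold. The axis ends at 3.2 in both directions and leaves out 10 genes, and the members sit within the cloud of other genes, with Thy1 at the bright end.

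The binding partners of these receptors were described from lists of genes chosen by name, with earlier results of these data known. Of 9 ligand genes, 5 were measured, with 1 counted as higher by the size rule and none as lower. That gene was Cd72, a B cell protein that has been described as a ligand of CD5, which also stands among the B cell markers, at 1169 on the DKO-titled and 4956 on the TKO-titled array (log2 ratio 2.08). Cd86, a ligand of CD28, was under the floor on the DKO-titled array (58.8) and measured on the TKO-titled array (123), a log2 ratio of at least 0.84, which as a bound does not place it on either side of 2-fold. Cd48, the mouse ligand of CD2, had a log2 ratio of -0.04, Alcam, the ligand of CD6, had -0.31, and Il16, which encodes a cytokine that binds CD4, had nearly equal signals of 1784 and 1782 and was the median gene of the list. Cd80, Cd70, Sectm1a and Sectm1b, ligand genes for CD28, CD27 and CD7, were under the floor on both arrays.

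Inside the cell, 21 genes for partners of these receptors were measured, and none reached 2-fold in either direction. Their median log2 ratio was -0.14, with 9 positive and 12 negative, and the sign of the median turned (0.08) when the probe sets of each gene were averaged. The largest were Traf5, an adaptor of CD27 signalling, at 0.83 (219 to 388), Ptpn6, a phosphatase linked to CD5, at 0.64 (2816 to 4379), and the CD2-associated adaptor Cd2ap at 0.55 (1063 to 1553). Lck was not analysed here. Siva1, named for its binding to CD27, shows how probe sets can differ, since its 4 ran from -0.49 to 0.50; it was picked out after its values were seen.

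Relatives of the members in the same receptor families counted 4 of 22 measured genes past 2-fold on the higher side, 0 on the lower, and a median log2 ratio of 0.40, with 14 positive and 8 negative. The CD2 family member Slamf9 was at 1.91 (72.0 to 270.0). The B cell survival receptor Tnfrsf13c, of the TNF receptor family, was at 1.62 (270.5 to 831), and Btla, an inhibitory receptor of B and T cells related to CD28, was 2.83-fold higher (529 to 1498). Cd5l, a macrophage protein with domains like those of CD5, was at 1.26 or more (45.5, under the floor, to 165). Of the others, Icos was at 0.92, Tnfrsf9 at 0.84 and Ctla4, an inhibitory receptor that shares its ligands with CD28, at -0.81 (2645 to 1510). The count rests on the brightest probe set of each gene. The 3 probe sets of Icos ran from 0.92 to 1.12 and the 3 of Cd40 from 0.51 to 1.04, so both genes also had a probe set past 2-fold. Lag3, the relative of Cd4, was under the floor on both arrays at 5.63 and 3.13. Cd163, a relative of CD5 and CD6, was measured on the DKO-titled array alone (92.0 to 25.9). Its log2 ratio of -0.36 or below is a bound, so it was not counted as lower though its place is not known. A floor at the 75th percentile left Slamf9 and Cd5l unmeasured, put Tnfrsf13c just under 2-fold, and gave the list a median of -0.02.

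Transcription and chromatin factors known to control Cd4 and Cd8 gave no ratio of 2-fold among 17 measured genes. Their median log2 ratio was -0.20, with 5 positive and 12 negative, and -0.11 once the trend of the ratio with signal was removed. The largest were Runx1, a repressor of Cd4 in double-negative cells, at -0.65 (4901 to 3127), the DNA methyltransferase gene Dnmt1 at -0.38 (8761 to 6727) and the chromatin organiser Satb1 at -0.36 (10636 to 8299). All 6 Runx1 probe sets were negative, from -0.71 to -0.19. Zbtb7b, which directs cells to the CD4 lineage, had a probe set under the floor on both arrays (55.5 and 56.0) and another that was under it on the DKO-titled array (5.59) and just above it on the TKO-titled array (99.6), a log2 ratio of at least 0.53.

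The nearest measured gene on each side of a member was read from the RefSeq gene order, so that unmeasured genes can lie between them. The gaps ran from 0.498 to 707 kb. Of 17 measured neighbours that are not members themselves, 1 was at least 2-fold higher, 0 were counted as lower, and the median log2 ratio was -0.06. The higher one was Slc15a3, a peptide and histidine transporter gene on one side of Cd6, at 88.5 and 258 (log2 ratio 1.54), while Cd6 itself had -0.05. At a 75th percentile floor Slc15a3 was unmeasured. Gpr162, beside Cd4, was measured on the DKO-titled array alone (109 to 48.4). Its log2 ratio of -0.60 or below is a bound, which does not place it on either side of 2-fold. Cd8a and Cd8b1 are each other's nearest measured gene on one side.

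**Figure D4:**
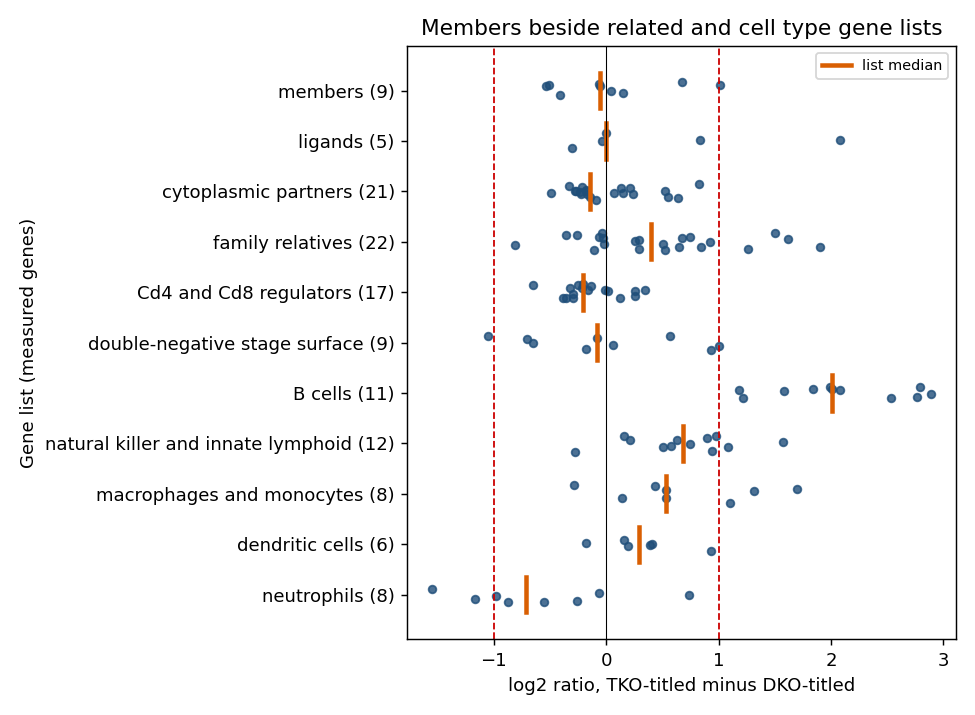
Log2 ratios (TKO-titled minus DKO-titled) of the measured genes in the member list, the related lists and the cell type marker lists, 1 point per gene with random vertical scatter, list medians as orange bars, dashed lines at 2-fold and the number of measured genes in brackets. The members centre on -0.05, and all 11 B cell genes lie beyond 2-fold, with a median of 2.01.

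Markers of other cell types differed between the labels, and they stand beside every value above. These lists too were chosen with earlier results of these data known, so their counts are a description and not an independent observation. All 11 measured B cell markers passed 2-fold on the higher side (median log2 ratio 2.01), and their summed signal was 8173 on the DKO-titled and 33052 on the TKO-titled array. Of the natural killer and innate lymphoid markers 2 of 12 were at least 2-fold higher (Klrb1b at 1.57 and Klrd1 at 1.08), the median was 0.69 and the summed signals were 28310 and 29108. Most of that sum was the granzyme gene Gzma (21801 and 18012), and the other 11 summed to 6509 and 11096. Macrophage and monocyte markers had 3 of 8 higher (Csf1r, Lyz2 and Ccr2), a median of 0.53 and sums of 1792 and 4087. Neutrophil markers had 2 of 8 lower (Ngp and S100a9), a median of -0.71 and sums of 3219 and 1776. Dendritic cell markers had 0 of 6 past 2-fold, a median of 0.30 and sums of 5934 and 6493. Most of those sums came from Tcf4 (2335 and 3068) and Bst2 (3071 and 2707). In all these lists the ratio of a gene under the floor on 1 array is a bound. A bound short of 2-fold was counted as not past it, though it does not place the gene. Zbtb46 (67.7 to 132, at least 0.94) is such a gene. Of the gamma-delta T cell list 1 of 4 was higher, Blk, which also stands in the B cell list, and the median of 0.16 turned to -0.21 at a 25th percentile floor and with no floor. Stroma and epithelium had 0 of 5 past 2-fold and a median of 0.36, which turned to -0.26 at a 75th percentile floor, and of 6 erythroid genes only Epor was measured, on the DKO-titled array alone (log2 ratio of -0.16 or below). At a 75th percentile floor Pax5, Klrb1b and Ngp were unmeasured and Cd79a, Csf1r, Ccr2 and S100a9 were under 2-fold, at log2 ratios of 0.70, 0.95, 0.32 and -0.997. When its probe sets were averaged Ccr2 was at 0.40. These counts rest on the brightest probe set of each gene. The measured probe sets ran from 0.24 to 2.01 for Pax5, from 0.92 to 2.79 for Fcrla and from 0.40 to 1.70 for Klrb1b. No listed marker read exactly 0 on either array. Members can be carried by some of these cells as well as by T cells, whichever way their ratio lies. The part of the marker differences in the members' ratios was not tested.

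Genes of the double-negative and double-positive thymocyte stages were mixed. Of 9 genes of the double-negative stages, Il2ra, the CD25 gene, was lower at 6536 and 3162 (log2 ratio -1.05), Cd69, an activation marker also held in this list, was higher at 230.0 and 462 (2.01-fold), and 7 were neither, among them Cd44 at 0.94, Notch1 at -0.70 and Ptcra at -0.65. Of 9 measured double-positive stage genes, 1, again Cd69, was higher, 0 were lower, and the median was -0.13. Both calls lay at the 2-fold line: Il2ra was at -0.98 with the lowess trend removed and at -0.95 when its probe sets were averaged, and Cd69 at 0.95 after quantile normalization and 0.15 at a 75th percentile floor.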

How the data were processed

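The authors deposited 1 linear intensity per probe set for each of 2 Affymetrix arrays, 1 titled DKO and 1 titled TKO. Per the submitters' processing notes these come from MAS5, with neither version nor settings stated. Each array had been scaled as a whole, since both had a mean of 497 once 2% was trimmed at either end. The number of arrays limits the precision, and detection calls were not used here.

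Of the 45037 probe sets, 34945 have 1 gene in the platform's annotation and 932 have several, while 9160 are unnamed here. Entrez IDs gave current symbols from a RefSeq table of GRCm38.p6 (99.4% matched). Where a gene had several probe sets, the brightest by mean log2 intensity represented it. Named genes are all members, all measured ligands, and from the other lists those past 2-fold and up to 3 further genes with large ratios, with a shorter choice from the cell type lists. Some genes under the floor, with a bound, or with probe sets that differ are named as well, where they limit a count. Members and lists were chosen with earlier results of these data known.

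Ratios were computed with Python (3.11.15), using pandas 2.3.3, numpy 2.4.6, statsmodels 0.14.6 and scipy 1.17.1, and plotted using matplotlib 3.10.9. The procedure was tested on simulated data, with planted changes well past 2-fold in bright probe sets. That test does not check calls near the 2-fold line or in dimmer genes such as Cd7. Alternatives were 3 scalings (medians set equal, quantile, lowess with span 0.3), 3 floors (25th percentile, 75th percentile, none), the mean over probe sets, leaving out _x_at and _s_at probe sets, and a 1.5-fold rule.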

Additional observations from a re-analysis of the deposited data

How the results depend on the processing

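The 2-fold count of members was 1 higher and 0 lower, for genes and for probe sets, under every alternative but 3. It was 0 higher after quantile normalization and 0 higher with a floor at the 75th percentile, which Cd7 did not reach on either array, and 2 higher with a 1.5-fold rule, where Cd2 joined Cd7. Over all genes the count of 404 higher and 60 lower became 962 and 434 with a floor at the 25th percentile, 147 and 14 at the 75th, 2197 and 1497 with no floor, and 977 and 369 with the 1.5-fold rule. The members' median log2 ratio stayed between -0.10 and 0.02. All 70 alternative ratios of single members lay within 0.29 of the value reported, and the sign turned in 1 of them, Cd6. Many of the 70 could not move. A member with 1 probe set keeps its ratio under any floor that both signals clear. Averaging or leaving out probe sets also leaves that ratio as it was, and setting medians equal shifts such ratios by the same amount. Of the list medians under alternatives, 105 lay within 0.29 and 6 did not. The sign of the near-zero ligand median (-0.0013) turned to 0.03 with medians set equal and 0.04 after lowess. No paired analysis was possible because each label has 1 array. With 1 probe set each, Thy1, Cd2, Cd5, Cd6, Cd7, Cd27 and Cd8b1 have no check within the array.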
